A study of Solanum tuberosum with 11 samples.

Results

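Transcripts whose loci share positions were examined in the apical tip of dormant potato (Solanum tuberosum, cultivar Atlantic) minitubers. A transcript was a member if its locus in the authors' deposited table was under 15000 bases long and shared at least 1 position with another transcript's locus on the same chromosome. The table lists 35091 transcripts, and 2399 of them, or 6.84%, met this rule. They form 1388 overlapping pairs. The comparison was how the levels of both partners moved together over the 4 conditions, set beside pairs of next neighbours that do not overlap.

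Per the labels, RNA came from discs of periderm, the outer tissue of the tuber, that held the apical bud. Tubers of 3 to 5 g received an injection of the solvent dimethyl sulfoxide (DMSO) in 5 µl, either alone or carrying 10 µg of NG, 1-(alpha-ethylbenzyl)-3-nitroguanidine. The labels list 3 control libraries at zero time, and 3, 2 and 3 libraries of NG tubers harvested on day 1, day 4 and day 7. With no later control among them, NG and elapsed time cannot be told apart. The authors' deposited table holds 1 combined level per condition, named Controls, NG 1-Day, NG 5-Days or NG 7-Days. No label names a day 5, so NG 5-Days is kept under that name. Depth per library is unknown, there are no values per library, and every error given for a change is the standard error inside the authors' test.

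Genes often lie close together in plant genomes, and some overlap. Neighbours on opposite strands can run into each other at their 3′ ends, and transcripts that share sequence in this way are known as natural antisense pairs. A sequencing read from the shared stretch fits both transcripts, so a level for each of them depends on strand information or on a statistical model that divides the reads. NG is a nitroguanidine, a class with members known for cytokinin-like activity, and cytokinins are plant hormones that promote the end of tuber dormancy.

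The locus column does not give each transcript its own ends when loci overlap. In 1387 of the 1388 pairs both partners carry the identical start and end in the authors' deposited table, so the locus is a span shared by the whole group. Nested and staggered pairs therefore cannot be told apart, and the length limit applies to the shared span. The single remaining pair, on chromosome 1, has loci at 45630554 to 45630860 and 45630860 to 45634352 that share 1 position, and the mean levels over the 4 conditions were 0 and 0.0371. Just outside the rule lay 1 adjacent pair with no base between its loci, on chromosome 1 at 35666608 to 35667869 and 35667870 to 35668284, with mean levels of 0.163 and 0.345. The longest shared span inside the limit was 14937 bases, on chromosome 2 at 39232868 to 39247804, where 4 transcripts had mean levels of 0.173, 0.287, 9.51 and 84.9. The shortest span left out was 15024 bases, on chromosome 4 at 63498592 to 63513615, with mean levels of 4.13 and 11.4. Coordinates are those of the authors' deposited table, with no build, strand or exon named.

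The members lie at 1143 distinct loci. Of these, 1041 hold 2 members and 100 hold more than 2, up to 5. In a locus of more than 2 the shared span does not show which transcripts overlap each other directly. Members made up between 4.21% of the transcripts of chromosome 12 (121 transcripts) and 10.3% of those of chromosome 2 (323 transcripts). The median span was 6178 bases for members and 2230 bases for all other transcripts. The table pairs its identifiers with no gene names. None was found among the identifiers of 32873 genes in a RefSeq table (0 matches), so no function can be given for any member.

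Identifiers split the pairs into 2 kinds. In 580 pairs both identifiers end in the same 6 digits and differ in the digits before them, as in PGSC0003DMG401008010 and PGSC0003DMG402008010, and these are called numbered partners here. The other 808 pairs carry unrelated endings. Numbered partners also occur side by side without overlap, in 1056 of the 33634 adjacent pairs, which allows both kinds to be compared with and without a shared span. Adjacent pairs are next neighbours in start order with no shared position and both loci under 15000 bases, and the median gap between them was 6300 bases.

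Members were seldom silent, yet few were abundant. The mean level over the 4 conditions was 0 for 6.53% of 2389 members, against 26.6% of 32689 other transcripts, and 63.2% of members had a mean of at least 1, against 49.2%. Among transcripts with a mean of at least 1 the median was 7.12 for 1509 members (upper quartile 16.0) and 10.4 for 16086 others (upper quartile 25.3). A mean of at least 100 was reached by 43 members, 1.80%, and by 3.15% of other transcripts. Medians of the 1509 members stayed close in the 4 conditions, at 6.86 in Controls, 6.81 in NG 1-Day and 7.13 in both later conditions. Levels are on the scale of the authors' deposited table, whose unit is not named.

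Partners at a shared locus differed widely in level. Both had a mean level of at least 1 in 567 of 1375 pairs, 41.2%, against 32.8% of 33619 adjacent pairs and 45.4% of the 4811 adjacent pairs with a gap of at most 1000 bases. In those 567 pairs the higher partner stood at a median of 3.51 times the lower one (quartiles 1.79 and 7.69), close to the 3.25 of adjacent pairs. The ratio was under 2 in 164 pairs and at least 10 in 105. Across the 567 pairs the mean levels of the partners had a Spearman correlation of -0.09, and across 11042 adjacent pairs it was 0.09, both as descriptions over pairs that share transcripts and libraries.

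Silence of both partners was rare, at 21 pairs or 1.53%, where 15.5% of all adjacent pairs and 9.54% of those with a gap of at most 1000 bases were both at 0. In 143 pairs, 10.4%, a single partner was at 0 throughout, against 21% of adjacent pairs and 9.91% of those with a gap of at most 1000 bases. In 27 of the 143 the other partner had a mean level of at least 10. The most unequal of these, picked after its values were seen, lies on chromosome 12 at 46325428 to 46336742. Its higher partner was at 170 in Controls, 160 in NG 1-Day, 140 in NG 5-Days, then 133 in NG 7-Days, per the authors' deposited table, while the other was listed at 0 in each. Where both were above 1, the widest ratio was 203, on chromosome 10 at 51454224 to 51459808, between numbered partners. The higher of them was at 456, 477, 396 and 429 in the same order of conditions and the lower at 1.55, 2.26, 1.53 and 3.31 in the authors' deposited table. Those pairs were also picked after their values were seen.

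Overlapping partners moved in the same direction more often than adjacent neighbours, by shares that differed by a few percentage points. A pair counts as moving in the same direction when both log2 changes have the same sign, on the scale log2(level + 0.1), and both partners had a mean level of at least 1. Between NG 1-Day and NG 5-Days this held for 342 of 567 overlapping pairs, 60.3% (95% exact binomial interval 56.2% to 64.4%), and for 5858 of 11042 adjacent pairs, 53.1% (52.1% to 54.0%). Intervals cover counting over pairs only, and pairs are not replicates, so no test was made of the difference. The share was 60.3% from NG 1-Day to NG 7-Days, against 53.8% in adjacent pairs, and 59.6% from NG 5-Days to NG 7-Days, against 53.1%.

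Against Controls the shares were 61.7% in NG 5-Days and 63.5% in NG 7-Days for overlapping pairs, where adjacent pairs had 54.2% and 55.6%. For NG 1-Day against Controls overlapping and adjacent pairs lay together, at 54.3% (50.1% to 58.5%) and 53.3% (52.4% to 54.2%). The overlapping share was the higher in all 6 comparisons, and its interval lay wholly above that of all adjacent pairs in 5. These 6 comparisons share their conditions and so are not separate observations.

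**Figure D1:**
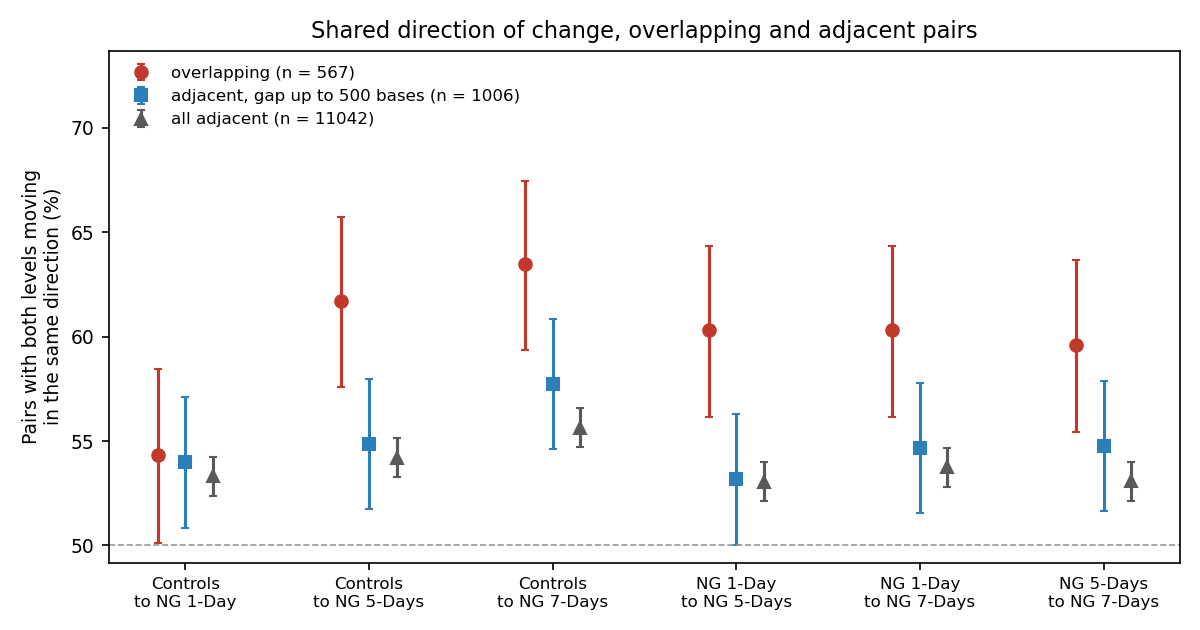
Share of pairs (%) in which both partners' levels moved in the same direction, for each of the 6 comparisons on the horizontal axis; points are shares, bars are 95% exact binomial intervals over pairs, and the dashed line marks 50%. Overlapping pairs (circles) lie at 54.3% to 63.5%, adjacent pairs with a gap of up to 500 bases (squares) at 53.2% to 57.8% and all adjacent pairs (triangles) at 53.1% to 55.6%.

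Adjacent pairs with short gaps stayed below the overlapping shares. The 1006 adjacent pairs with a gap of up to 500 bases moved in the same direction in 53.2% from NG 1-Day to NG 5-Days and 57.8% from Controls to NG 7-Days. The overlapping share was above theirs in all 6 comparisons, but the intervals ran into each other in each of the 6. Adjacent pairs with gaps above 5000 bases had 53.2% and 55.3% in those comparisons, so their share was alike in the first and lower in the second. The Spearman correlation of paired log2 changes was 0.10 and 0.13 for them, against 0.13 and 0.20 at a gap of up to 500 bases.

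By size of the paired changes, the Spearman correlation was higher in overlapping than in all adjacent pairs in each of the 6 comparisons. Across the 567 overlapping pairs the log2 changes of the partners from NG 1-Day to NG 5-Days had a Spearman correlation of 0.25, against 0.11 across the adjacent pairs and 0.13 across those with a gap of up to 500 bases. From Controls to NG 5-Days the correlations were 0.33, 0.11 and 0.15. For NG 1-Day against Controls they were 0.11, 0.10 and 0.14, so the pairs with short gaps had the highest. Across the 322 overlapping pairs without numbered partners it was 0.13 from NG 1-Day to NG 5-Days and 0.18 from Controls to NG 5-Days. Adjacent pairs without numbered partners had 0.10 in both. From Controls to NG 7-Days the correlation was 0.14 in these 322 and 0.32 in all 567 overlapping pairs. Adjacent pairs with a gap of up to 500 bases had 0.20 there. All are weak and are descriptions over pairs that share libraries. The median distance between the log2 changes of the partners from NG 1-Day to NG 5-Days was 0.46 in overlapping pairs and 0.61 in adjacent pairs, but also 0.47 in adjacent pairs with a gap of up to 500 bases. The distance was larger in overlapping pairs than in those with short gaps for NG 1-Day against Controls (0.28 and 0.22), NG 7-Days against Controls (0.27 and 0.26) and NG 7-Days against NG 5-Days (0.28 and 0.27).

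**Figure D2:**
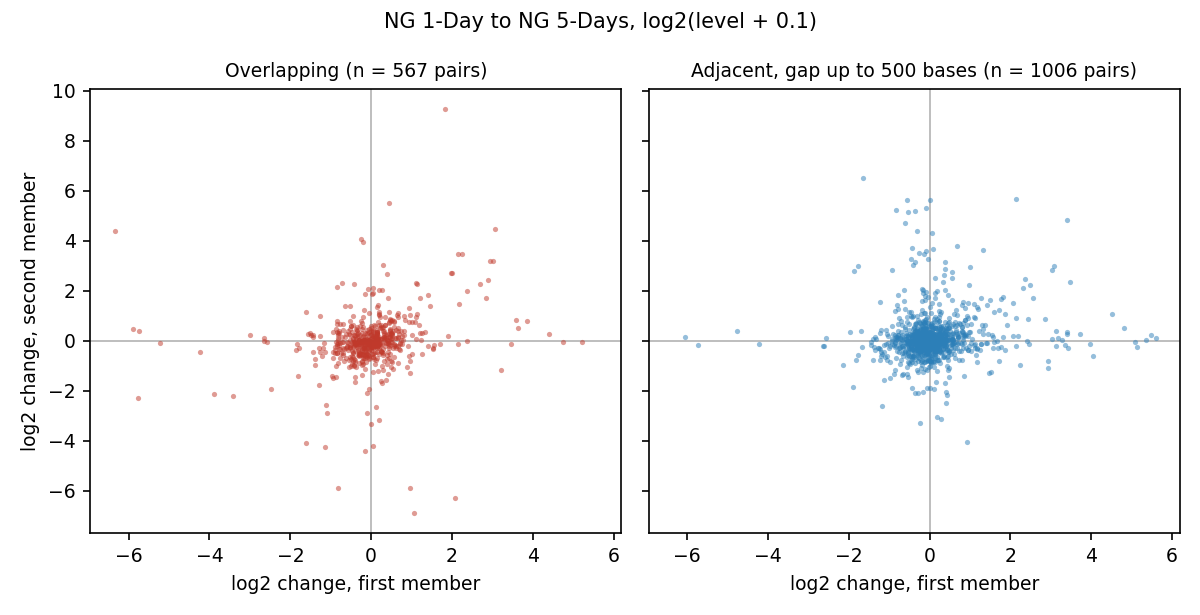
Change of the first partner (horizontal) against that of the second (vertical) from NG 1-Day to NG 5-Days, in log2(level + 0.1), for 567 overlapping pairs on the left and 1006 adjacent pairs with a gap of up to 500 bases on the right; each point is a pair. Most points lie near 0 in both panels, and the Spearman correlation is 0.25 on the left and 0.13 on the right. Across the overlapping pairs without numbered partners it is 0.13.

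Over the whole course from Controls through NG 1-Day and NG 5-Days to NG 7-Days, both partners took the same direction at all 3 steps in 143 of 567 overlapping pairs, 25.2% (95% exact binomial interval 21.7% to 29.0%). Adjacent pairs did so in 21.7%, and those with a gap of up to 500 bases in 23.1% (20.5% to 25.8%). Opposite directions at all 3 steps were taken by 79 overlapping pairs, 13.9%, and by 16.5% of adjacent pairs. The Pearson correlation of the 4-point profiles of the partners was above 0 in 65.3% of overlapping and 54.7% of adjacent pairs, with medians of 0.45 and 0.15. A correlation over 4 points is only a summary of shape.

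By level of the lower partner, overlapping pairs had the higher share in 6, 5 and 6 of the 6 comparisons for the classes 1 to 5, 5 to 20, and 20 and above. Their interval lay wholly above that of adjacent pairs of the same class in only 2, 0 and 0 comparisons. With a lower partner at a mean of 1 to 5, 59.7% of 387 overlapping pairs moved together from NG 1-Day to NG 5-Days, against 53.6% of adjacent pairs of that level. With a lower partner at 5 to 20, 60.0% of 160 did so, against 52.5%. Above 20 there were only 20 overlapping pairs, of which 15 did so, against 52.8% of adjacent pairs. By ratio of levels there was no fixed order. For 164 pairs under 2-fold apart and 105 pairs at least 10-fold apart, the shares were 60.4% and 58.1% from NG 1-Day to NG 5-Days, 52.4% and 59.0% from Controls to NG 1-Day, and 63.4% and 58.1% from NG 5-Days to NG 7-Days.

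Numbered pairs and other pairs were also set apart. From Controls to NG 5-Days 70.2% of 245 overlapping numbered pairs moved in the same direction, against 55.3% of 322 other overlapping pairs, and from Controls to NG 7-Days 71.4% against 57.5%. In the step to NG 5-Days from NG 1-Day the shares were closer, at 62.9% and 58.4%. Numbered partners that do not overlap also exceeded other adjacent pairs in most comparisons, with 62.3% against 53.7% from Controls to NG 5-Days and 64.3% against 55.1% from Controls to NG 7-Days. From Controls to NG 1-Day they were below, at 51.8% against 53.4%.

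Within each kind, overlapping pairs had a higher share than adjacent pairs at any gap in all 6 comparisons, but no interval lay wholly above that of the adjacent pairs of the same kind. Numbered neighbours with a gap of at most 1000 bases had 63.7% from NG 5-Days to NG 7-Days, against 63.3% of overlapping numbered pairs. The Spearman correlation was also higher in numbered neighbours of all gaps than in overlapping numbered pairs in that comparison, at 0.37 and 0.34. The same held for NG 1-Day against Controls, at 0.14 and 0.05. The median distance between the partners' log2 changes was larger in overlapping numbered pairs than in numbered neighbours in all 6 comparisons. From Controls to NG 5-Days it was 0.26 against 0.23, and from Controls to NG 7-Days 0.25 against 0.16. For other identifiers it was smaller with overlap than in neighbours of all gaps in all 6 comparisons. Against such neighbours with a gap of at most 1000 bases it was larger with overlap from Controls to NG 1-Day, at 0.26 against 0.22. From Controls to NG 7-Days it was 0.28 in both, and from Controls to NG 5-Days 0.37 against 0.40. In the remaining comparisons it was slightly smaller with overlap, as in 0.51 against 0.52 from NG 1-Day to NG 5-Days. Numbered pairs at a shared locus lay between 53.9% and 71.4% over the comparisons, and numbered neighbours without overlap between 51.8% and 64.3%. For other identifiers the ranges were 54.7% to 58.4% with overlap and 52.5% to 55.1% without. Numbered pairs made up 43.2% of the 567 overlapping pairs and 5.69% of the 11042 adjacent pairs.

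**Figure D3:**
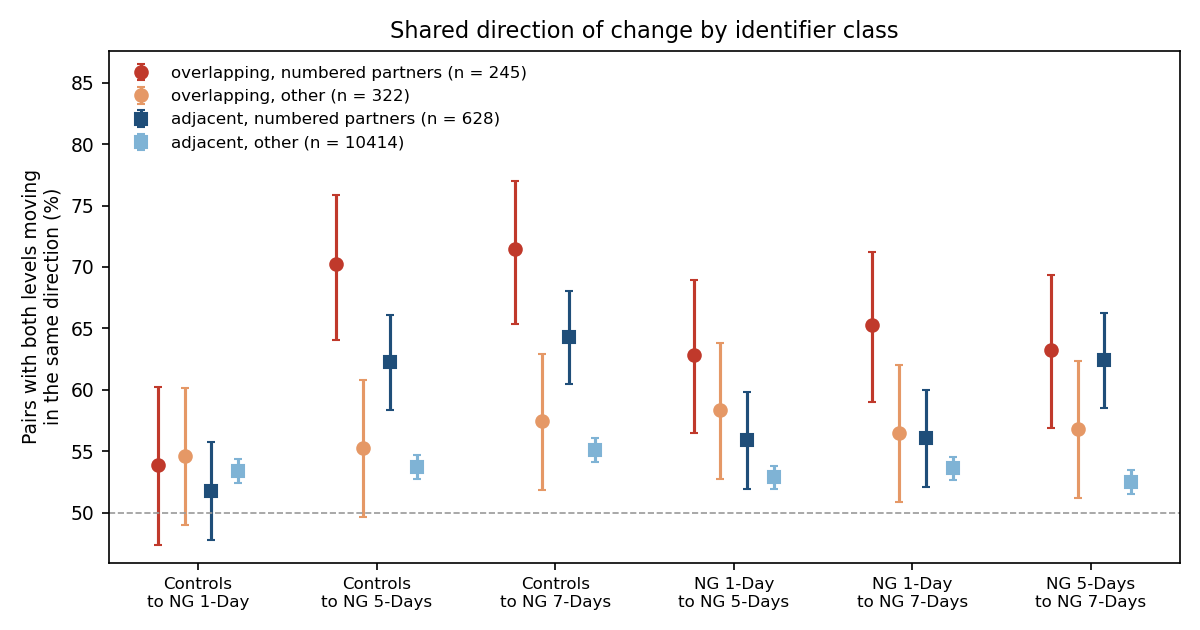
Share of pairs (%) in which both partners moved in the same direction, by comparison, for overlapping pairs (circles) and adjacent pairs (squares) with numbered partners (dark) and other identifiers (light); bars are 95% exact binomial intervals over pairs and the dashed line marks 50%. From Controls to NG 5-Days the order is 70.2%, 55.3%, 62.3% and 53.7% from left to right.

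Pairs in loci with more than 2 members had shares closer to those of adjacent pairs. The 108 pairs with a partner in another pair moved together in 51.9% from NG 1-Day to NG 5-Days and lay above all adjacent pairs in 2 of the 6 comparisons. The 459 pairs outside such groups had 62.3%. The largest group, 5 transcripts on chromosome 2 at 39891974 to 39904170, had a summed level of 35.3 in Controls, 33.0 in NG 1-Day, 31.9 in NG 5-Days, then 35.6 in NG 7-Days, per the authors' deposited table. A single transcript held most of it, with levels of 31.2, 26.6, 28.9 and 30.4, and the next was at 2.34, 2.03, 2.17 and 3.51. Another stood at 4.12 in NG 1-Day but at 0.570 in NG 5-Days, per the authors' deposited table.

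A smaller share of members than of all tested transcripts was called changed. A call is an adjusted p under 0.05 in the authors' deposited table, whose adjustment runs over all 6 comparisons together. From NG 1-Day to NG 5-Days 182 of 1804 tested members were called, 10.1% (95% exact binomial interval 8.74% to 11.6%), where 3950 of all 19705 tested transcripts were, 20%. Rises numbered 115 among members, 6.37% against 13.1% of all tested transcripts, and falls 67, 3.71% against 6.91%. Between NG 1-Day and NG 7-Days 67 of 1812 members were called, 3.70% against 8.87%, and from NG 5-Days to NG 7-Days 29 of 1834, 1.58% against 4.36%.

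Against Controls the calls among members were few. In NG 1-Day 6 of 1787 tested members had fallen and none had risen, 0.336% against 1.06% of all tested transcripts. In NG 5-Days 3 had risen and 5 had fallen among 1824, 0.439% against 1.47%. In NG 7-Days none of 1828 members was called in the authors' deposited table, against 0.0150% of all, and 6 members had an unadjusted p under 0.05, 1 higher and 5 lower. Shares over all tested transcripts by direction, or at an unadjusted p, are not given here for these comparisons. No lean of members to falls can therefore be read from these counts.

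Taken over all levels, the lower share of calls stood beside larger model errors at similar sizes of change. Between NG 1-Day and NG 5-Days the median absolute log2 change was 0.39 for members and 0.41 for other tested transcripts, while the median model standard error was 0.38 and 0.28. The gap in error was widest at low levels. Below a level of 1, the geometric mean of both conditions, the median error was 1.46 for 366 members and 0.66 for others, and 4.92% against 17.5% were called. At 1 to 5 it was 0.53 against 0.38, with 10.4% against 24.9% called. Members also had smaller median absolute log2 changes in these classes, at 0.71 against 0.94 below 1 and 0.45 against 0.54 at 1 to 5.

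At higher levels the errors converged and the shares of calls still differed. At 5 to 20 the median errors were 0.26 and 0.25, the median absolute changes 0.29 and 0.32, and the calls 10.4% of 577 members against 20.6% of others. At 20 to 100 the calls were 15.3% of 229 members against 18.4%. The part of the error in the lower share of calls was not tested.

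**Figure D4:**
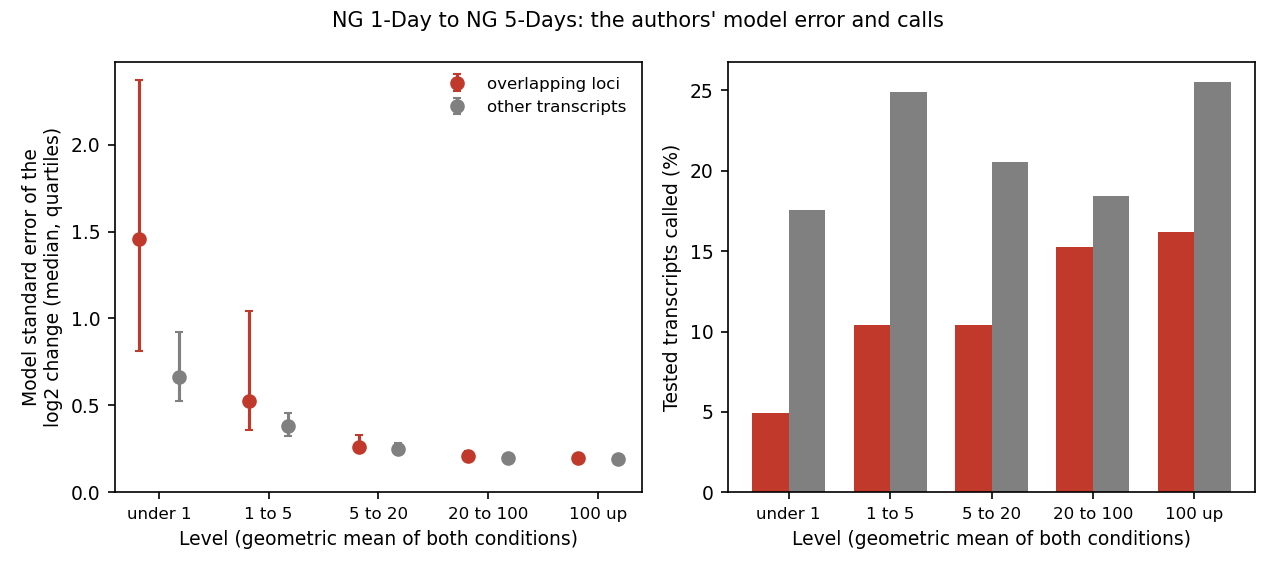
Left, median standard error of the log2 change from NG 1-Day to NG 5-Days in the authors' test, with quartiles as bars, by class of level; right, share of tested transcripts called (%). Members with overlapping loci (red) have a median error of 1.46 against 0.66 below a level of 1 and 0.26 against 0.25 at 5 to 20, and a lower share of calls than other transcripts (grey) in each class.

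Calls on both partners were scarce, and from NG 1-Day to NG 5-Days same-direction calls outnumbered opposite ones in overlapping and adjacent pairs alike. In the step to NG 5-Days from NG 1-Day both partners were tested in 814 overlapping pairs, and in 12 of them both were called in the same direction, 10 pairs rising and 2 falling, 1.47% of pairs. Opposite calls were made in 4 pairs, 0.491%. Of 13081 adjacent pairs, 481 had both called in the same direction, 3.68%, and 230 in opposite directions, 1.76%. In the 11 same-direction pairs with no level at 0, the partners' log2 changes lay between 0.07 and 1.95 apart, with a median of 0.57. All 4 opposite pairs have other identifiers, and 4 of the 12 same-direction pairs are numbered, while 340 of the 814 tested pairs are numbered. These counts are too small to compare both kinds.

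Where a single partner was called, the other leaned the same way. From NG 1-Day to NG 5-Days this was so for 76 of 112 such overlapping pairs, 67.9% (95% exact binomial interval 58.4% to 76.4%), against 52.4% (50.9% to 54.0%) of 4083 adjacent pairs. The uncalled partner had a median log2 change of 0.28 in the direction of the called one, against 0.03 in adjacent pairs. Among numbered overlapping pairs it was 34 of 42, 81.0% (65.9% to 91.4%), and among other overlapping pairs 42 of 70, 60.0% (47.6% to 71.5%). Between NG 1-Day and NG 7-Days the share was 35 of 46 overlapping pairs, 76.1%, against 56.0% of adjacent pairs.

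Among pairs with both partners called risen from NG 1-Day to NG 5-Days and both reaching a level of at least 5, the largest smaller change of the partners was that of the numbered pair PGSC0003DMG401008010 and PGSC0003DMG402008010 on chromosome 4 at 60227704 to 60232698. The first was at 3.73 in Controls, 1.35 in NG 1-Day, 9.33 in NG 5-Days, then 5.50 in NG 7-Days, per the authors' deposited table, and the second at 9.27, 4.73, 23.0 and 14.5. Both were lowest in NG 1-Day and highest in NG 5-Days. The first rose by a log2 fold change of 2.79 (standard error 0.71, adjusted p = 0.00248 in the authors' deposited table). The second rose by 2.28 (standard error 0.27), with an adjusted p listed at 0.

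Another numbered pair, on chromosome 2 at 43665896 to 43674945, had the same shape at higher levels. Its partners were at 31.5 and 18.5 in Controls, 23.5 and 9.64 in NG 1-Day, 105 and 108 in NG 5-Days, then 55.5 and 42.5 in NG 7-Days, per the authors' deposited table. They were unequal in Controls and nearly equal in NG 5-Days. The log2 fold changes from NG 1-Day to NG 5-Days were 2.16 (standard error 0.53, adjusted p = 0.00136) and 3.48 (standard error 0.53, adjusted p = 4.67e-09) in the authors' deposited table. This span is shared by more than 2 members.

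The abundant pair PGSC0003DMG400029751 and PGSC0003DMG400029752 on chromosome 1 at 74408506 to 74417239 fell together. The first was at 694 in Controls, 690 in NG 1-Day, 124 in NG 5-Days, then 198 in NG 7-Days, per the authors' deposited table, and the second at 136, 158, 40.9 and 61.5. Levels in Controls and NG 1-Day were close for both, and both later conditions were lower. Their log2 fold changes in the step to NG 5-Days were -2.47 (standard error 0.30, adjusted p = 9.63e-14) and -1.95 (standard error 0.27, adjusted p = 6.88e-11) in the authors' deposited table. Both had also fallen from Controls to NG 5-Days, by -2.48 (standard error 0.56, adjusted p = 0.000454) and -1.73 (standard error 0.56, adjusted p = 0.0351). Adjusting that comparison by itself ended the latter call (adjusted p = 0.16).

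On chromosome 3 at 22388436 to 22392911 a numbered pair fell by unequal amounts. The higher partner was at 10.2, 13.1, 6.10 and 5.86 in the usual order of conditions in the authors' deposited table, and the lower at 1.53, 6.20, 0.748 and 1.38. The lower one stood apart in NG 1-Day, its only level above 2. The log2 fold changes from NG 1-Day to NG 5-Days were -1.10 (standard error 0.25, adjusted p = 0.000312) and -3.05 (standard error 0.96, adjusted p = 0.0292) in the authors' deposited table.

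Opposite calls included a pair that traded places. On chromosome 2 at 35492869 to 35497439, a locus of more than 2 members, the first partner was at 5.88 in Controls, 8.05 in NG 1-Day, 0 in NG 5-Days, then 6.53 in NG 7-Days, per the authors' deposited table. The second was at 2.11, 0.284, 7.96 and 4.03. Each was lowest where the other was highest, and the summed level was 7.99, 8.34, 7.96 and 10.6. In the step to NG 5-Days from NG 1-Day the first fell to a level listed at 0 (adjusted p = 5.07e-05) and the second rose by a log2 fold change of 4.81 (standard error 0.66, adjusted p = 4.44e-11) in the authors' deposited table. Whether reads were divided differently between the partners in these conditions was not tested.

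In the other 2 opposite pairs named by rule the summed level moved with the higher partner or stayed similar. On chromosome 3 at 47066513 to 47070967 the higher partner fell from 91.6 in NG 1-Day, reaching 29.7 in NG 5-Days (adjusted p = 2.07e-06) while the lower rose from 3.28 to 7.42 (adjusted p = 0.0105) in the authors' deposited table. Their Controls levels were 81.2 and 4.14, and those in NG 7-Days 63.8 and 4.83, so NG 5-Days stood apart for both. On chromosome 4 at 14011410 to 14019924 the levels were 24.8, 23.8, 13.1 and 17.0 for the higher partner and 4.31, 2.31, 10.5 and 11.6 for the lower in the authors' deposited table. From NG 1-Day to NG 5-Days the former fell by 0.86 (standard error 0.24, adjusted p = 0.00857) and the latter rose by 2.18 (standard error 0.67, adjusted p = 0.0239) on the log2 scale, and the summed level was 26.1 and then 23.6.

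**Figure D5:**
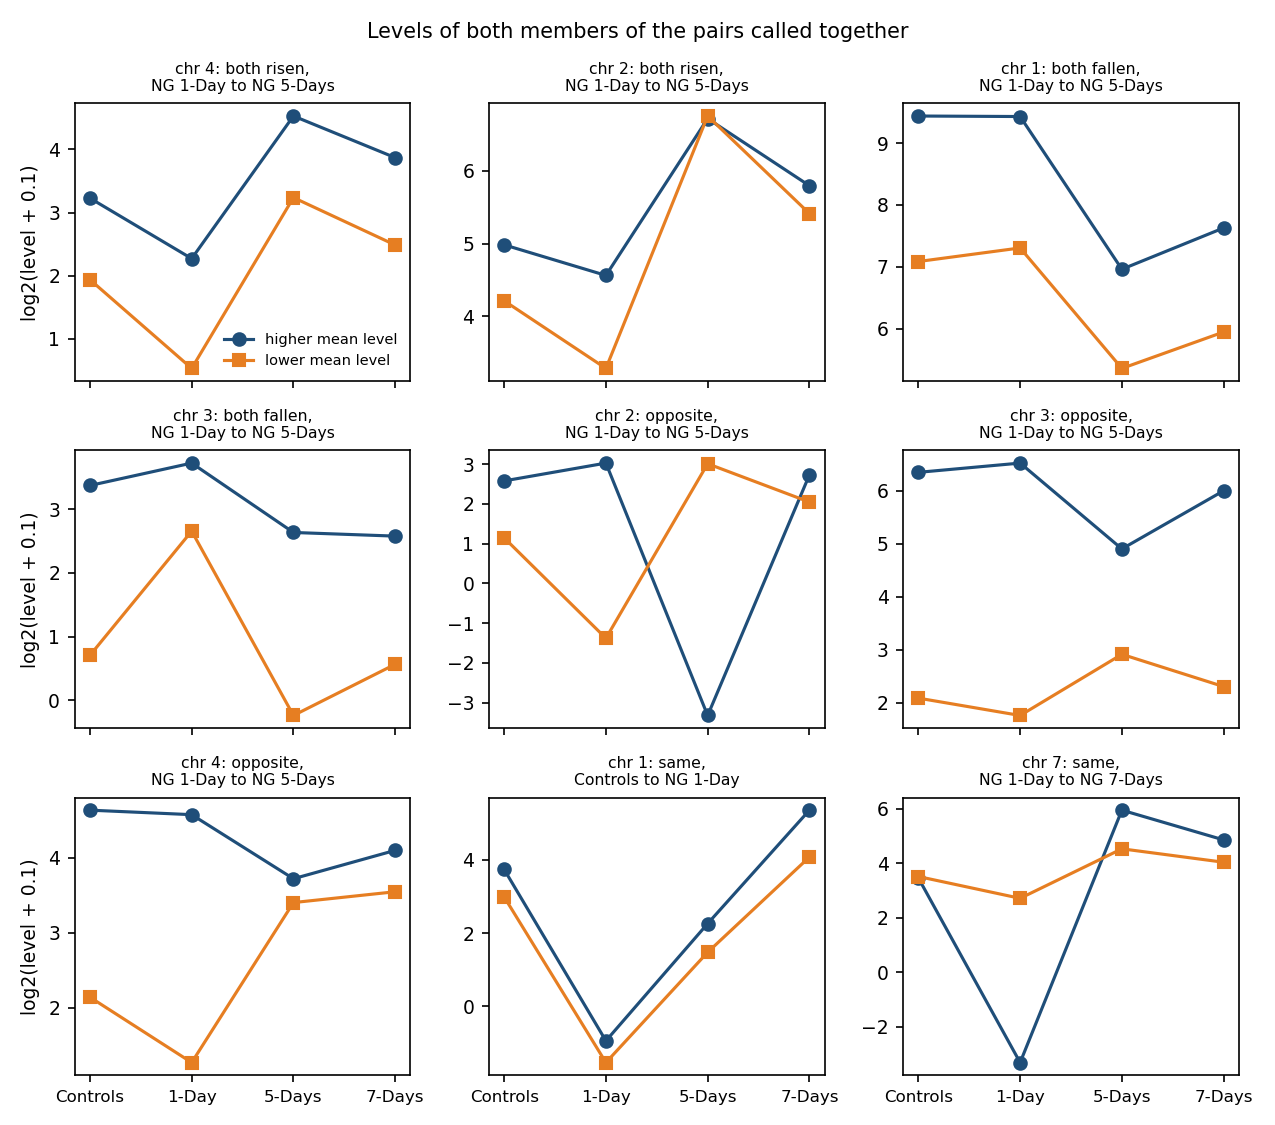
Levels of both partners of 9 pairs in the 4 conditions, as log2(level + 0.1), with the partner of higher mean level as circles and that of lower mean level as squares; panel titles give the chromosome and the comparison in which both were called. Vertical axes differ between panels and do not start at 0. The partners' lines cross in 3 panels: the chromosome 2 pair called in opposite directions, and the chromosome 2 and chromosome 7 pairs that rose together.

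Against Controls 1 of 802 overlapping pairs fell together in NG 1-Day, 0.125%, and 4 of 12876 adjacent pairs did, 0.0311%. These numbered partners on chromosome 1 at 4229393 to 4239369 were at 13.2 and 7.83 in Controls, 0.420 and 0.245 in NG 1-Day, 4.68 and 2.68 in NG 5-Days, then 40.9 and 16.8 in NG 7-Days, per the authors' deposited table. They kept their order in all 4 conditions. The log2 fold changes from Controls to NG 1-Day were -4.98 (standard error 1.12, adjusted p = 0.000364) and -5.00 (standard error 1.67, adjusted p = 0.0476), and adjusting that comparison by itself ended the second call (adjusted p = 0.267). The lower partner rose from NG 1-Day to NG 7-Days by 6.10 (standard error 1.41, adjusted p = 0.000583) in the authors' deposited table, and the higher is marked there as not tested.

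Between NG 1-Day and NG 7-Days both partners were called in the same direction in 4 of 828 overlapping pairs, 0.483%, a lower share than the 113 of 12835 adjacent pairs, 0.880%. The one named by rule lies on chromosome 7 at 52150653 to 52158077. Its partners were at 11.3 and 10.8 in Controls, 6.42 and 0 in NG 1-Day, 22.9 and 61.3 in NG 5-Days, then 16.2 and 28.7 in NG 7-Days, per the authors' deposited table. The first rose from NG 1-Day to NG 7-Days by 1.34 on the log2 scale (standard error 0.35, adjusted p = 0.00351), and the second rose from a level listed at 0 (adjusted p = 0.0403). Both were called risen from NG 1-Day to NG 5-Days as well.

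The pair with the highest lower partner shows joint levels without calls under the authors' adjustment. On chromosome 5 at 38446062 to 38449863 numbered partners were at 142 and 107 in Controls, 152 and 133 in NG 1-Day, 111 and 85.6 in NG 5-Days, then 145 and 104 in NG 7-Days, per the authors' deposited table. Both were highest in NG 1-Day and lowest in NG 5-Days. Neither was called in any of the 6 comparisons, and for NG 5-Days against NG 1-Day the adjusted p was 0.827 for the higher partner and 0.116 for the lower one. Adjusting that comparison by itself gave an adjusted p of 0.368 for the higher partner and 0.0366 for the lower one, which would then be called fallen.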

How the data were processed

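RNA sequencing of the 11 libraries was available as 1 deposited table, with libraries combined by the authors into a level per condition. The column names are those of Cuffdiff output, per the file headers. The deposited table names no unit for its levels. The log2 fold change, test statistic, p-value and q-value are the authors' own. For the aligner, versions, build, strand setting and filters, the sources used here give nothing. Recomputing the Benjamini-Hochberg adjustment over all 118862 tested lines gave the deposited q-values to within 3.32e-06.

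Pairs were found from the locus column, with both ends included. Changes were taken as log2(level + 0.1) for pairs with both mean levels at least 1. A model standard error is the log2 fold change divided by the authors' statistic. Intervals are exact binomial (Clopper-Pearson) at 95%. Of the members, 10 have no level summary: lines of 8 disagree on a level, and 2 carry the mark of data too abundant to process. Python 3.11.15, pandas 2.3.3 and SciPy 1.17.1 were used, and pair finding and pair statistics were tested on simulated data.

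Members, lists and classes were chosen with earlier results of these data known. Pairs were named by rule: both partners with a level of at least 5 in some condition, called in the same or in opposite directions, ranked by the smaller of both absolute log2 changes. The parts of that rule on nested pairs could not be applied, nor could edgeR or limma, since the table has no values per library. The chromosome 10 and chromosome 12 pairs and the split into loci with more than 2 members were named after their values were seen. The sources used here do not say whether libraries came from separate tubers.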

Additional observations from a re-analysis of the deposited data

How the results depend on the processing

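Overlapping pairs kept a higher same-direction share than adjacent pairs in all 6 comparisons under the main setting and each of 9 alternatives (level filter, pseudocount, median centring, overlap of at least 100 positions, groups or numbered partners left out, nearer or wholly separate adjacent pairs). Settings on groups, numbered partners or length of overlap altered overlapping pairs only. Those on nearer or wholly separate neighbours altered adjacent pairs only. In each of these the other side kept its main setting. Of 42 alternative values for overlapping pairs, 37 stayed within the main interval. Those under the other pseudocount and under an overlap of at least 100 positions could not move. A pseudocount does not alter the sign of a change, and the only pair with a shorter overlap was already below the level filter. With no filter beyond a mean level above 0 the share was 57.6% from Controls to NG 5-Days, 58.8% from Controls to NG 7-Days and 55.1% from NG 5-Days to NG 7-Days. Without numbered partners it was 55.3% from Controls to NG 5-Days and 57.5% from Controls to NG 7-Days, since the numbered pairs left out had the higher shares. The Spearman correlation of paired changes in these comparisons was then 0.18 and 0.14, against 0.33 and 0.32 in the main setting. At an adjusted p under 0.01 the pairs with both partners called from NG 1-Day to NG 5-Days went from 12 to 5 in the same direction and from 4 to 1 in opposite directions. When each comparison was adjusted alone, called members went from 182 to 254 from NG 1-Day to NG 5-Days and from 8 to 5 from Controls to NG 5-Days. The shares over all tested transcripts under that adjustment are not given here. Counting starts from 0 left 2397 members and 1387 pairs. No paired analysis was possible because the table holds 1 combined value per condition, which also prevented leaving out any library. Depth is unknown, so which low levels are detectable cannot be stated.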

Other observations

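The 8 transcripts whose lines disagree on a level in the authors' deposited table are all members with overlapping loci. Of 264 lines marked as having too little data, 252 belong to members, 1.75% of their lines. A numbered pair on chromosome 9 at 6129992 to 6134762 is marked as too abundant to process in NG 1-Day, where both partners are listed at 0. In the other conditions they were at 338 and 2543 in Controls, 194 and 1509 in NG 5-Days, then 232 and 1832 in NG 7-Days, per the authors' deposited table.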
